A study of Mus musculus with 63 samples.

Results

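The genes described here encode the proteins of the mitochondrial ribosome. They were chosen by name: every symbol of the count tables that begins with Mrpl or Mrps followed by a number and that the annotation deposited with the counts lists as protein-coding. This gave 78 of 55291 symbols, 49 named Mrpl and 29 named Mrps. By the known structure of the particle, 51 of them belong to the large subunit and 26 to the small subunit. Mrps30 and Mrps18a carry small-subunit names but sit in the large subunit, and Mrps36 belongs to the 2-oxoglutarate dehydrogenase complex rather than to the ribosome. Of the subunit proteins, 48 have a bacterial homolog and 29 are particular to mitochondria.

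The mitochondrial ribosome sits at the inner membrane of the organelle and makes a small set of hydrophobic respiratory chain subunits from mRNAs transcribed inside the mitochondrion. All of its proteins are encoded in the nucleus, translated on cytosolic ribosomes and imported, so each particle joins nuclear-encoded proteins with ribosomal RNA made in the organelle. Loss of single proteins in inherited disease impairs respiration, often with effects on the brain.

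The RNA came from mouse entorhino-hippocampal tissue cultures prepared at postnatal day 3 to 5 from C57BL/6J (Synpo+/+) and synaptopodin-deficient (Synpo-/-) animals and matured for at least 18 days. Lesioned cultures (ECL) had the perforant path from the entorhinal cortex cut with a scalpel, and the study's methods place the regional samples 3 days after the lesion. In the regional experiment each library held 1 dentate gyrus (DG) or 1 CA3 area: Synpo+/+ CA3 control (n = 2) and ECL (n = 3), Synpo+/+ DG control (n = 4) and ECL (n = 7), Synpo-/- CA3 control (n = 6) and ECL (n = 6), and Synpo-/- DG control (n = 7) and ECL (n = 4). In the co-immunoprecipitation (coIP), each lysate came from pooled cultures (6 by the study's methods, 5 to 6 by its description elsewhere). RNA bound to beads with an anti-synaptopodin antibody (coIP) was sequenced beside an aliquot of the precleared lysate (input), in Synpo+/+ control (n = 5 each), Synpo+/+ ECL (n = 5 each) and Synpo-/- cultures (n = 2 each), whose lesion state the labels do not give. Labels do not say which regional libraries share a culture or an animal, so p-values measure the spread between these libraries.

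Total counts ran from 11601154 to 53682143 per library. Several facts about the libraries bear on what follows. Synpo counts did not mark the libraries labelled Synpo-/- as lacking it. In DG control their mean was 54.8 ± 9.04 CPM (SD, counts scaled to library size), against 25.6 ± 2.99 CPM in Synpo+/+ libraries. In CA3 control the means were 37.5 ± 3.53 and 26.6 ± 1.37 CPM. In coIP the order was reversed, with 29.2 CPM under the Synpo-/- label and 37.2 CPM in Synpo+/+ control. The genotype is therefore given throughout as labelled. The transcript counted may come from outside the deleted part. This, and the cause of the higher level in the regional controls, was not tested. Synpo+/+ DG ECL replicate 5 held 12.7 CPM of Prox1, the transcription factor that marks dentate granule cells, against 123 to 235 CPM in the other 21 DG libraries and 11.2 to 39 CPM in the 17 CA3 libraries. It therefore looks like CA3 in this marker. Other markers had CA3-like extremes in the same group. The lowest sum of 8 granule cell markers there was 71.4 CPM, beside 69.0 to 76.8 CPM in Synpo+/+ CA3 ECL libraries. The highest sum of 8 CA3 pyramidal cell markers was 1460 CPM, against at most 761 CPM in Synpo+/+ DG control. The main counts of calls that use replicate 5, and the fold changes of Mrpl37, Mrpl2 and Mrpl19, are also given without it. Other values of that group include it.

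**Figure D1:**
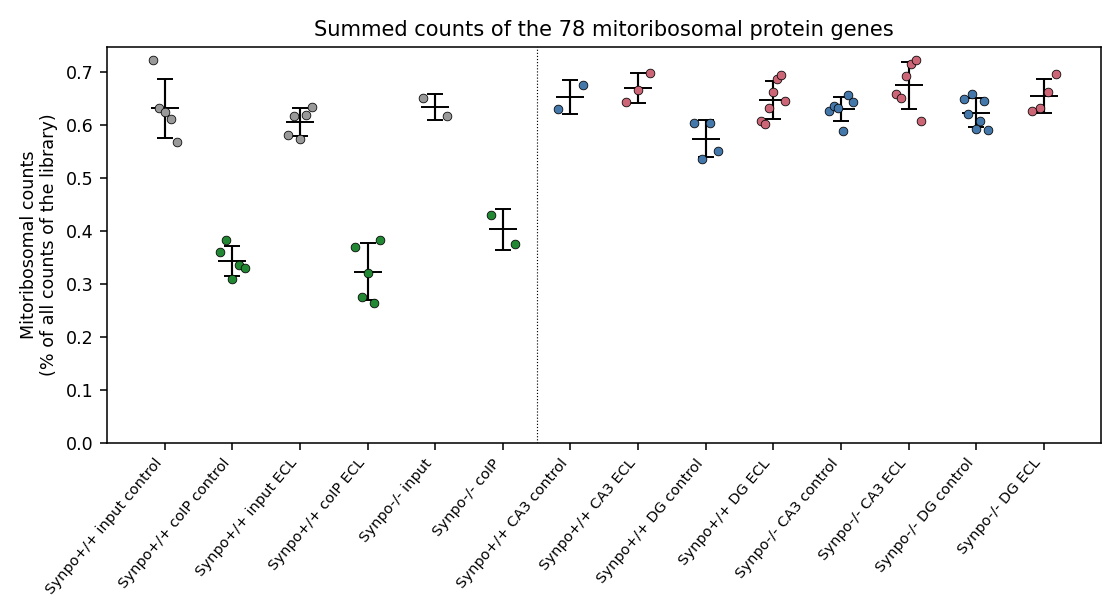
Share of each library's counts that fell on the 78 genes, in percent, by group. Points are libraries, and lines with caps are means with SD. The coIP libraries lie between 0.264% and 0.431%, below every input library.

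The 78 genes are spread over 17 chromosomes. Their merged exons had a median length of 2394 bases, from 607 to 8631, against 3520 bases for all protein-coding genes. The median GC content was 49.9%, against 48.4%. In 32 members some exon bases overlap exons of another gene, on the same strand in 8 and on the other strand in 27. Reads were counted without regard to strand, so these values are uncertain to the extent of the overlap. Mrpl53 (GRCm38, chr6:83109040-83109939) shares 88.0% of its exon bases with Gm42688 and Ccdc142os and had at most 3 counts in any library, so it was not tested. Mrps34 (chr17:24895116-24897502) shares 77.8% with Nme3 and Mapk8ip3, Mrps25 69.8% with Nr2c2 and Mrpl19 36.0% with Gcfc2. Processed copies could also take reads, although the 6 symbols of pseudogene copies had means of 0.0217 to 0.764 CPM where their parent genes had 58.2 to 106 CPM.

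Some short sequences, which the choice by name did not use, stood more often in promoters of these genes than in those of all genes. RefSeq (GRCm38.p6) promoter windows, from 250 bases before to 50 bases after the start, were found for 69 of the 78 members. The letters CCGGAAG, bound by ETS factors such as GABP, stood on either strand in 26 of the 69 windows (37.7%) against 9.93% of the windows of 27025 genes. The letters bound by NRF1 (GCGCA, then any base, then GCGC) stood in 13 (18.8%) against 5.19%, and AAGATGGC, bound by YY1, in 12 (17.4%) against 3.19%. Of the other letters searched, GGGCGG (SP1) stood in 34 (49.3%) against 38.2% and TGACGTCA (CRE) in 2 (2.9%) against 2.03%. At least 1 of the ETS, NRF1 and YY1 letters stood in 43 windows (62.3%) against 16.4% of all windows. The windows of all genes were not matched to those of the members for GC content or gene type. A match is a description of the letters and not of a bound site.

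Upstream stretches of 100 bases are shown for 3 members described below, picked because they hold such letters and no annotated exon. Mrpl45 lies at the tunnel exit facing the inner membrane (NRF1 letters, chr11:97315616-97315715, plus strand), Mrpl58 is a peptidyl-tRNA hydrolase (ETS letters, chr11:115403652-115403751, plus strand) and Mrps22 is a small-subunit protein (ETS letters, chr9:98601680-98601779, minus strand). They are written 5′ to 3′ up to the base before the start, with the matched letters in capitals.
Mrpl45: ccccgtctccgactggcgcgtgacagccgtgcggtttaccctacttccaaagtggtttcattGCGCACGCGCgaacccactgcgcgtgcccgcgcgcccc
Mrpl58: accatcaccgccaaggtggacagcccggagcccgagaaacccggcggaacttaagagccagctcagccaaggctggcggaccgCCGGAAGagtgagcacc
Mrps22: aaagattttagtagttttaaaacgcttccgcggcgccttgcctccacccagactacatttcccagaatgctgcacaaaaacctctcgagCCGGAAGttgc

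These genes serve 1 particle, and their mRNA levels were spread widely. Over the 39 regional libraries, Mrpl41 was highest with a mean of 316 ± 45.1 (SD) CPM per kilobase of exon, followed by Mrps21 with 236 ± 33.8. The next 3, Mrps33 with 137, Mrpl28 with 120 and Mrps14 with 117 CPM per kilobase, lie closer to each other than the SD of 31.6 of Mrps33. At the low end stood Mrps30 with 2.05 and Mrps35 with 1.98 CPM per kilobase, both genes with long annotated exons. Levels therefore differed by over 2 orders of magnitude between members that each enter the particle, though annotated exon length need not be the length of the transcript made.

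Within groups the members moved together. After the mean of each group was removed from log2(CPM + 0.5) in the 39 regional libraries, the median correlation between members was 0.60 over 2926 pairs of 77 members, and 95.9% of pairs were positive. Mrpl17, a large-subunit protein, had the highest median correlation with the others at 0.77. Mrps30 (-0.09) and Mrps34 (0.14) had the lowest. Libraries share depth and RNA quality across genes, so these values are given as a description. The same correlation was not computed for other genes, so it is not shown to be particular to the members.

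The comparison of coIP with input shows which mRNAs were recovered on the beads, and the mRNAs of the mitochondrial ribosome made up a smaller share there. The study used Synpo-/- lysates to correct for non-specific antibody binding, and the share was lower in their coIP libraries too. Taken alone, the comparison with input therefore does not show a link with synaptopodin. In Synpo+/+ control cultures they made up 0.632% ± 0.0564 (SD, n = 5) of counts in input and 0.344% ± 0.0287 (n = 5) in coIP. After the lesion the shares were 0.606% ± 0.0263 and 0.323% ± 0.0537 (n = 5 each). In libraries labelled Synpo-/- the means were 0.635% and 0.403% (n = 2 each). All coIP libraries lay below all input libraries, as the plot of the share by library shows. Messages made inside the mitochondrion went the other way, from 1.76% to 3.70% of counts in Synpo+/+ control cultures.

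Gene by gene, 70 of 77 members tested were lower in coIP in Synpo+/+ control cultures and 0 were higher (edgeR quasi-likelihood test, Benjamini-Hochberg adjusted p under 0.05, as throughout). Of all 18222 genes tested, 25.5% were lower and 29.6% higher. The median log2 fold change of the members was -0.98, against 0.04 over all genes. After the lesion 68 of 76 were lower and 1 higher (27.8% and 30.5% of all genes), with a median of -1.05 against 0.02. In libraries labelled Synpo-/-, 60 of 77 were lower and 1 higher (16.4% and 15% of all genes), with a median of -0.74 against 0.02. Of the 78 members, 59 had a fall that passed the test in all 3 comparisons, 10 in exactly 2, 1 in a single comparison and 8 in none, the untested Mrpl53 included. The Synpo+/+ control and ECL comparisons use different libraries, and neither shares any with the Synpo-/- comparison.

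**Figure D2:**
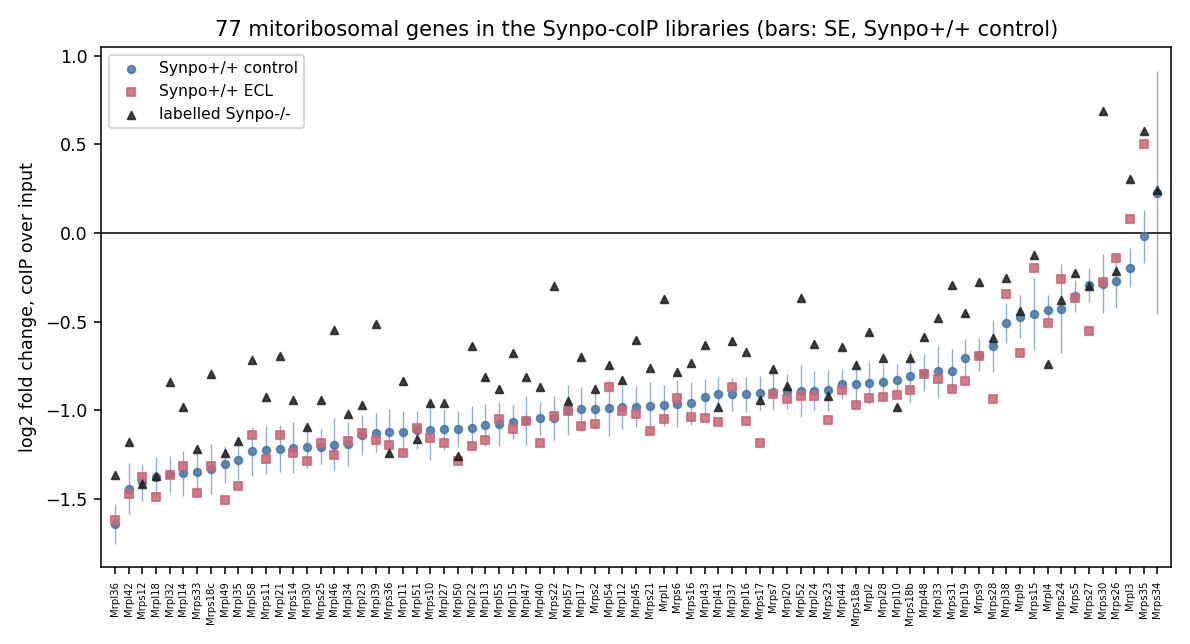
Log2 fold change of coIP over input for each of the 77 members tested, ordered by the Synpo+/+ control value. Points show Synpo+/+ control, Synpo+/+ ECL and libraries labelled Synpo-/-, and bars are the SE of the Synpo+/+ control value. Nearly all points lie below 0, and Mrps35, Mrpl3, Mrps30 and Mrps34 stand at the upper end.

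Both subunits took part. In Synpo+/+ control cultures 48 of 50 large-subunit members (median -1.0) and 21 of 26 small-subunit members (median -0.90) were lower. Members with a bacterial homolog (45 of 48, median -0.98) and members particular to mitochondria (24 of 28, median -0.95) had like medians. The 46 members free of exon overlap had 44 calls and a median of -0.98.

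Mrpl36 (chr13:73328513-73332178), a large-subunit protein with a bacterial homolog, fell most in Synpo+/+ control cultures. Its input values were 145, 128, 136, 129 and 106 CPM and its coIP values 41.2, 49.8, 34.0, 37.6 and 41.3 CPM. The groups do not overlap, as held for 69 of 77 members against 19.7% of all genes. After the lesion 62 of 76 members were lower in every coIP library (20.3% of all genes) and 1 higher (21%), and in libraries labelled Synpo-/- 71 of 77 were lower (31.8%) and 3 higher (36.3%). For Mrpl36 the log2 fold change was -1.64 ± 0.11 (SE, adjusted p = 2.35e-07), a 3.11-fold lower level. After the lesion it was -1.62 ± 0.17 and in libraries labelled Synpo-/- -1.36 ± 0.16 (adjusted p = 0.000241), where input values of 144 and 137 CPM stood against 64.9 and 47.0 CPM.

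Mrps12 (chr7:28739641-28741820) forms part of the decoding centre of the small subunit. It stood at 155, 137, 127, 121 and 108 CPM in Synpo+/+ control input and at 49.8, 53.3, 47.8, 49.5 and 41.3 CPM in coIP, again without overlap. Its log2 fold change was -1.41 ± 0.11 (adjusted p = 3.24e-07), and in libraries labelled Synpo-/- it was the most lowered member with -1.41 ± 0.16 (adjusted p = 0.000221). Mrpl42 (-1.44), Mrpl18 (-1.38) and Mrpl32 (-1.36) were the other members with the largest falls in Synpo+/+ control cultures. After the lesion Mrpl49 (-1.51), Mrpl18 (-1.49), Mrpl42 (-1.47) and Mrps33 (-1.46) followed Mrpl36. In libraries labelled Synpo-/-, Mrpl18 (-1.37), Mrpl50 (-1.25) and Mrps36 (-1.24) were also among the 5 lowest.

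The stalk of the large subunit recruits translation factors. Mrpl12, its L7/L12 protein (chr11:120484613-120489065), had input values of 103, 93.5, 89.8, 82.1 and 82.8 CPM and coIP values of 41.7, 54.0, 33.4, 51.7 and 44.3 CPM in Synpo+/+ control cultures. Every coIP library lay below every input library, and the log2 fold change was -0.98 ± 0.12 (adjusted p = 1.09e-05). Mrpl10 at the stalk base fell by 0.83 on the log2 scale.

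Proteins of the exit tunnel fell as well: Mrpl23 by 1.14, Mrpl24 by 0.89 and Mrpl45 at the membrane side by 0.98 on the log2 scale. Mrpl58, which frees peptides from stalled ribosomes, fell by 1.23. The 3 paralogs of bacterial S18 differ in the subunit they occupy. Mrps18a of the large subunit fell by 0.85, Mrps18b by 0.81 and Mrps18c by 1.33, and each was also called in the other coIP comparisons.

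Genes of inherited mitochondrial translation defects did not all behave alike in these tests. Mrps16 (-0.96) and Mrpl44 (-0.85) were lower in coIP in all 3 comparisons. Mrps22 was lower in Synpo+/+ control cultures (-1.04 ± 0.12) and after the lesion (-1.03), but stood at -0.30 ± 0.14 (adjusted p = 0.113) in libraries labelled Synpo-/-. Mrpl3 was called in none, with log2 fold changes of -0.20, 0.08 and 0.30 (adjusted p = 0.141, 0.575 and 0.162). Mrps36, which is not ribosomal, had a log2 fold change of -1.12 ± 0.13 (adjusted p = 5.77e-06) in Synpo+/+ control cultures.

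Mrps35 (chr6:147042764-147073991), a small-subunit protein with the longest annotated exons of the family, was the only member called higher in coIP in the reported tests. After the lesion its input values were 5.2, 6.45, 4.37, 6.78 and 5.77 CPM and its coIP values 8.29, 8.76, 7.13, 8.10 and 7.72 CPM. The groups do not overlap, and the log2 fold change was 0.50 ± 0.16 (adjusted p = 0.0127). In libraries labelled Synpo-/- it rose from 9.02 and 7.59 to 12.6 and 12.8 CPM (0.58 ± 0.19, adjusted p = 0.0371). In Synpo+/+ control cultures input and coIP overlapped (-0.02 ± 0.15, adjusted p = 0.928). With the trend of each library with exon length removed, neither rise passed the test (0.12 and 0.34). The Synpo-/- rise also failed without any 1 of the libraries Synpo-/- input replicate 1 or 2 (0.72 and 0.46) or coIP replicate 1 or 2 (0.58 and 0.57).

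Mrps30 and Mrps34 also departed from the rest. Mrps30 had log2 fold changes of -0.29 in Synpo+/+ control cultures, -0.28 after the lesion and 0.69 ± 0.26 (adjusted p = 0.0581) in libraries labelled Synpo-/-. The Synpo-/- value passed the test with no filter on low counts (0.67) and with the replicate block (0.66). Mrps34 was low, at 0.456 to 2.11 CPM in Synpo+/+ control input. Its coIP values were 0.307, 0.426, 0.683 and 0.403 CPM and, in replicate 2, 5.31 CPM. The value of 0.23 ± 0.69 (adjusted p = 0.798) therefore turned to -1.44 without Synpo+/+ control coIP replicate 2, and to -0.02 without Synpo+/+ control input replicate 5.

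In coIP, log2 fold change rose weakly with the length of the annotated exons. Merged exons of the members had a median of 2394 bases, against 3520 for all protein-coding genes. Across all genes tested, log2 fold change and exon length had a Spearman correlation of 0.29 in Synpo+/+ control cultures, 0.27 after the lesion and 0.15 in libraries labelled Synpo-/-. Among the members it was 0.19, 0.22 and 0.27. With the length trend removed, 63, 63 and 53 members were lower, with medians of -0.67, -0.68 and -0.60. Removing length and GC trends together gave 68, 64 and 50. Annotated exon length need not be the length of the transcript made, and its part in the members' values was not tested.

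Other genes of the same machinery gave mixed counts, where 25.5% of all genes tested were lower and 29.6% higher. Of 5 subunit genes with other symbols, 3 were lower in Synpo+/+ control coIP (median -0.80). Aurkaip1 (-1.21), Chchd1 (-1.22) and Dap3 (-0.32), a GTP-binding protein of the small subunit, were these 3. Of 14 mitochondrial translation factors 9 were lower and 2 higher (median -0.36), among them the elongation factor Tsfm (-0.93) and the recycling factor Mrrf (-1.05). Of 20 assembly factors 7 were lower and 5 higher (median -0.22), not far from the shares of all genes. The RNA helicase Dhx30 was among the higher (0.86). Of 10 genes of mitochondrial genome maintenance 5 were lower, with the packaging protein Tfam at -0.78, and 2 higher, with the polymerase Polg at 0.97.

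Lists of other ribosomal and respiratory genes moved the same way as the members. Of 83 cytosolic ribosomal protein genes 75 were lower and 0 higher in Synpo+/+ control coIP (median -0.83), and of 85 nuclear-encoded respiratory chain genes 69 were lower and 0 higher (median -0.90). All 13 mRNAs encoded by the mitochondrial genome were higher (median 0.95), with mt-Nd1 at 0.97 ± 0.09 (adjusted p = 8.63e-07). The genes for the machine and the messages it reads thus had medians of opposite sign, also after the lesion (-1.05 and 0.92) and in libraries labelled Synpo-/- (-0.74 and 0.45, with 5 of 13 mRNAs called).

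**Figure D3:**
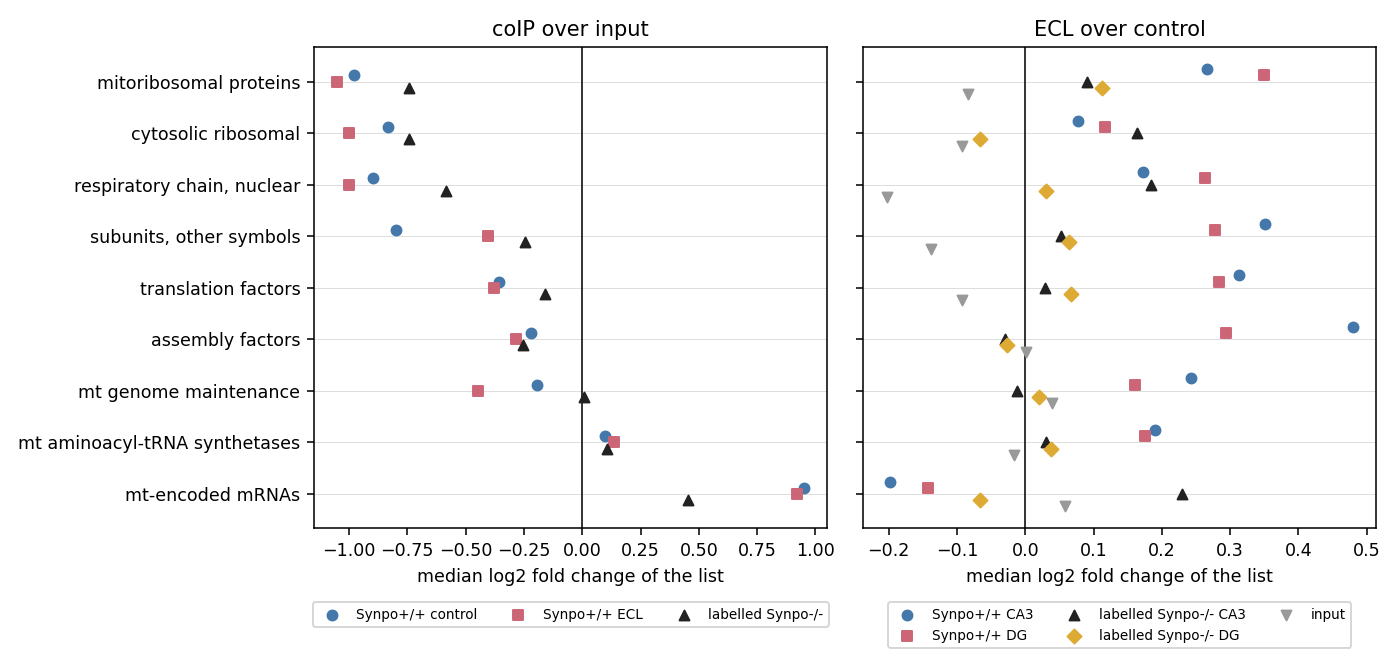
Median log2 fold change of each gene list, for coIP over input (left) and ECL over control (right), with 1 symbol per comparison as named in the legends. On the left mitoribosomal, cytosolic ribosomal and respiratory chain genes lie between -1.05 and -0.58, and the mt-encoded mRNAs lie above 0 in each comparison.

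Markers of other cell types also shifted between coIP and input in Synpo+/+ control cultures, where 25.5% of all genes tested were lower and 29.6% higher. Of 12 microglia markers 5 were lower, and their summed level ran from 909 to 1541 CPM in input and from 748 to 1306 CPM in coIP. Of 9 astrocyte markers 3 were higher, with sums of 16822 to 25707 CPM and 23646 to 40624 CPM. Summed levels of 3 lists did not overlap between input and coIP. Of 6 general neuron markers 1 was lower and 2 higher, and their sum was lower in coIP (7072 to 7904 CPM in input, 4718 to 6088 CPM in coIP). Of 7 markers of CA1 and subiculum 4 were higher (150 to 215 CPM and 263 to 352 CPM), as was 1 of 3 endothelial markers tested (sums over 5 markers of 5.35 to 6.71 CPM and 10.6 to 12.9 CPM). No marker of these lists was at 0 in either group, and their part in the members' values was not tested. In bulk RNA, fewer cells of a type and less RNA per cell cannot be told apart, here and in what follows.

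Whether the coIP effect differed between genotypes was tested in 1 fit with an interaction term. The Synpo+/+ control effect was more negative than the Synpo-/- effect in 72 of 77 members, with a median difference of -0.26 on the log2 scale against 0.01 over all genes. No member passed the test (0 of 77 by edgeR, 18 at an unadjusted p under 0.05, 0 by DESeq2; 0.0% of all genes called). The smallest p belonged to Mrps22, with a difference of -0.79 ± 0.21 (adjusted p = 0.505). Between lesioned and control Synpo+/+ cultures the median difference was 0.00 and 0 members were called by either tool (1 at an unadjusted p under 0.05; 0.0% of all genes).

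The lesion comparisons ask whether denervation alters these genes in DG and CA3. In the Synpo+/+ DG, which loses its perforant path input, 18 of 77 members rose after the lesion, 0 fell and 59 did not pass the test, where 7.86% of all genes rose and 4.31% fell. The median log2 fold change was 0.35, with 75 of 77 values above 0, against 0.00 over all genes and 0.20 over genes with a mean normalised count over 300. The share of counts on the family went from 0.575% ± 0.0353 (SD, n = 4) to 0.648% ± 0.0364 (n = 7). Without DG ECL replicate 5, 19 members rose (8.46% of all genes rose) and the median was 0.28.

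**Figure D4:**
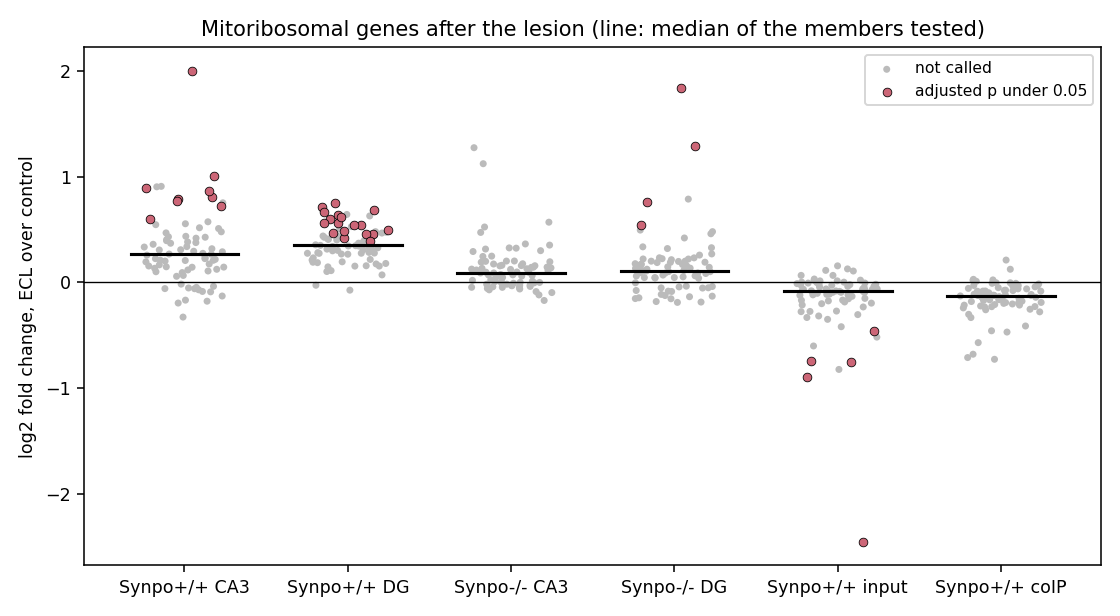
Log2 fold change of ECL over control for every member tested, in 4 regional and 2 coIP-experiment comparisons. Filled red points had an adjusted p under 0.05 and black lines are medians, which lie at 0.27 and 0.35 in Synpo+/+ CA3 and DG and at or below 0.11 in the others.

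Mrpl37 (chr4:107055874-107066868), a large-subunit protein particular to mitochondria, had the largest rise in the DG. Control values were 24.8, 13.9, 19.1 and 18.5 CPM, and the 7 ECL values ran from 24.4 through a median of 27.9 to 54.4 CPM. The groups touch, since the highest control lies above the lowest ECL library. The log2 fold change was 0.75 ± 0.20 (adjusted p = 0.0299), and 0.57 without DG ECL replicate 5, which also passed the test. The call was lost without DG control replicate 2, 3 or 4 (0.62, 0.74 and 0.72), without DG ECL replicate 4 (0.71) and with length and GC trends removed (0.61).

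Mrps6 (chr16:92058270-92112227), a small-subunit protein with a bacterial homolog, shares 19.9% of its exon bases with Gm49711 and Slc5a3. It stood at 35.4, 30.1, 32.3 and 24.9 CPM in control DG and between 35.9 and 65.3 CPM after the lesion, with a median of 47.5 CPM. The groups do not overlap, as in 17 members for higher ECL values against 7.68% of all genes. Its log2 fold change was 0.67 ± 0.15 (adjusted p = 0.0125).

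Mrpl2 lies near the peptidyl transferase centre, where peptide bonds form. It had 38.2, 25.4, 31.4 and 29.4 CPM in control DG and 42.3 to 70.4 CPM (median 46.7) after the lesion, without overlap (0.68 ± 0.16, adjusted p = 0.0141). Mrpl19 had 28.5, 22.2, 28.9 and 27.1 CPM and 30.9 to 70.3 CPM (median 41.1), also apart (0.71 ± 0.18, adjusted p = 0.0209). Replicate 5 was the highest ECL library for Mrpl37, Mrps6, Mrpl2 and Mrpl19, and without it Mrpl2 (0.58) and Mrpl19 (0.56) were still called. Without DG control replicate 2 or 4 both calls were lost (0.59 and 0.64 for Mrpl2, 0.63 and 0.70 for Mrpl19), and without DG control replicate 3 that of Mrpl19 (0.74). The smallest adjusted p was that of Mrps11 (0.54 ± 0.11, adjusted p = 0.00817), from 22.5 to 28.2 CPM in control and 32.7 to 46.3 CPM after the lesion.

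The other 13 members called were Mrpl16, Mrpl49, Mrps7, Mrpl28, Mrps23, Mrpl4, Mrpl40, Mrpl58, Mrpl17, Mrpl36, Mrpl55, Mrpl51 and Mrps28, with log2 fold changes from 0.39 to 0.64. Of the 18, 13 belong to the large and 5 to the small subunit. The stalk protein Mrpl12 (0.45, adjusted p = 0.0716) and the decoding centre protein Mrps12 (0.47, adjusted p = 0.0674) missed the threshold.

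Single libraries changed the number of calls. Leaving out DG control replicate 2, 3 or 4 left 3, 6 and 2 calls, and leaving out DG ECL replicate 4 or 6 left 7 and 12. Removal of length and GC trends left 8, and a fit of all 8 regional groups gave 37.

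Markers of glia rose with the members in the Synpo+/+ DG. All 12 microglia markers rose (median 1.18), from summed levels of 654 to 859 CPM in control to 1383 to 1754 CPM after the lesion, with no marker at 0. Of 9 astrocyte markers 6 rose (median 0.87; sums of 5273 to 6005 CPM and 6485 to 8974 CPM) and of 10 oligodendrocyte markers 1 rose. Their part in the members' rise was not tested. Of all genes tested, 7.86% rose in the same comparison. Among the related lists, 3 of 14 translation factors and 4 of 20 assembly factors rose. So did 9 of 85 respiratory chain genes and 5 of 84 cytosolic ribosomal protein genes, and 0 of 12 mt-encoded mRNAs did (median -0.14).

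In Synpo+/+ CA3, 9 of 77 members rose and 0 fell, where 1.5% of all genes rose and 0.273% fell. The median was 0.27 with 63 values above 0, against -0.01 over all genes and 0.17 over genes with a mean normalised count over 300. With 2 control and 3 ECL libraries, 44 members did not overlap in the direction of a rise, beside 30.2% of all genes. The family's share of counts was 0.654% (n = 2) in control and 0.670% (n = 3) after the lesion.

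The largest change was that of Mrps34, from 5.00 and 2.63 CPM to 20.8, 10.8 and 17.5 CPM (2.00 ± 0.34, adjusted p = 0.0307). It shares most of its exon bases with other genes, as given above. Mrps15 (chr4:126046925-126055532), a small-subunit protein free of overlap, rose from 37.9 and 23.5 to 67.3, 64.1 and 67.2 CPM (1.00 ± 0.19, adjusted p = 0.0393). Mrps35 rose from 14.6 and 11.3 to 26.8, 22.9 and 28.0 CPM (0.89 ± 0.17, adjusted p = 0.0393). In all 3 genes each ECL library lay above both controls.

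Mrpl12 (0.77 ± 0.15, adjusted p = 0.0408) and Mrpl10 (0.79 ± 0.16, adjusted p = 0.0423) of the stalk rose in CA3, while Mrpl11 at the stalk base stood at 0.27 ± 0.13 (adjusted p = 0.24). Mrpl12 went from 42.2 and 52.7 CPM to 79.5, 79.7 and 101 CPM and Mrpl10 from 18.4 and 22.0 CPM to 31.9, 36.8 and 43.7 CPM. Neither gene's groups overlap. Mrps12 (0.60), Mrps26 (0.86), Mrpl54 (0.81) and Mrpl4 (0.72) were also called.

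These calls depended on the libraries and the fit. Without CA3 control replicate 1 or 2 there were 4 and 6, without ECL replicate 1 or 2 there were 0, and without ECL replicate 3 there was 1. DESeq2 called 17, RLE size factors gave 5, and a fit of all 8 groups gave 0. Of 12 microglia markers 2 rose in the same comparison (sums of 627 to 980 CPM in control and 1037 to 1285 CPM after the lesion, none at 0), and their part was not tested.

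**Figure D5:**
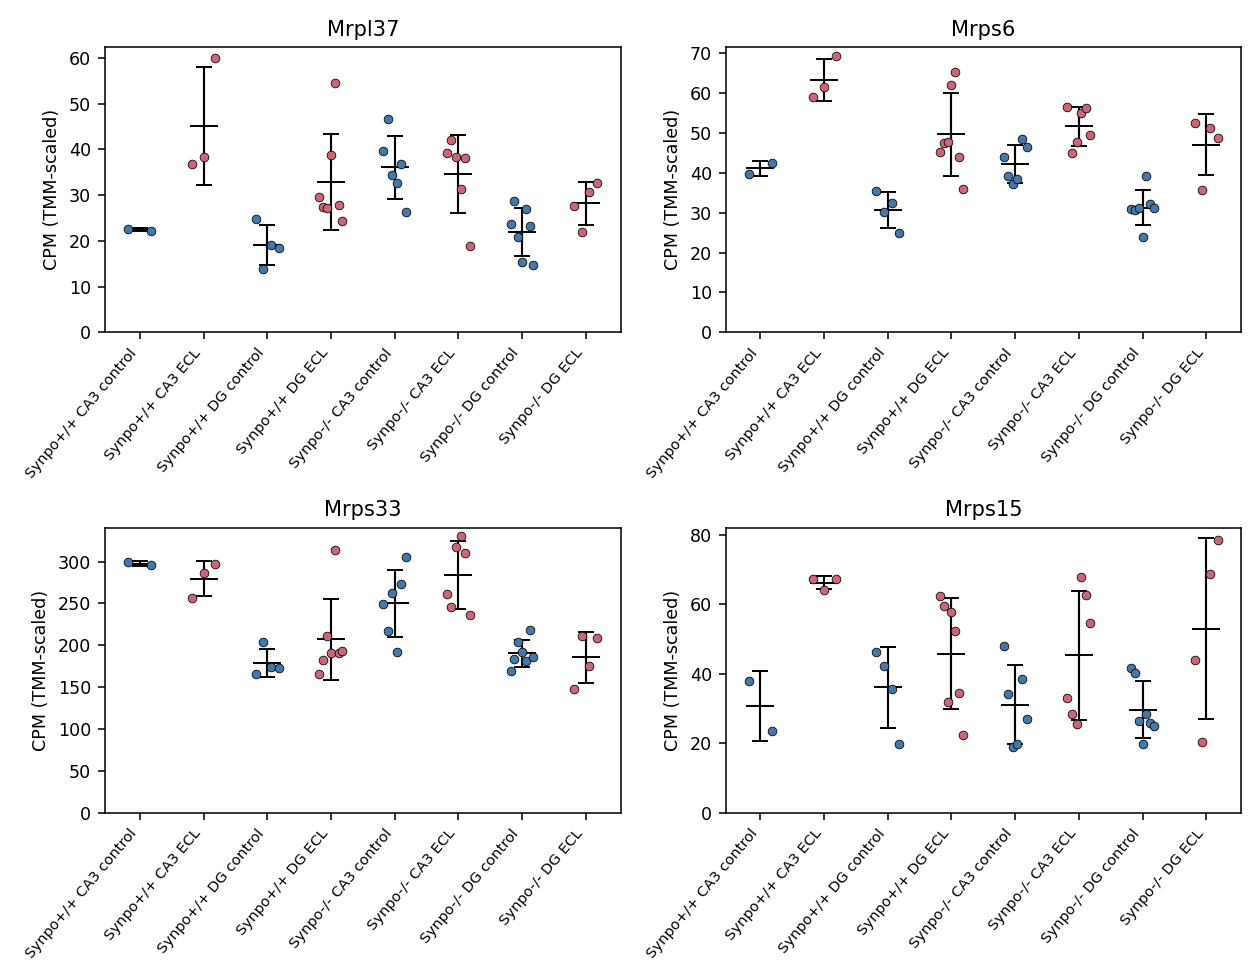
CPM of Mrpl37, Mrps6, Mrps33 and Mrps15 in the 39 regional libraries by group. Points are libraries and lines with caps are means with SD. The mean of Mrps6 lies higher in ECL than in control DG in both genotypes, though the Synpo-/- libraries overlap. Mrps33 lies lower in DG than in CA3 in Synpo+/+ control cultures.

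In CA3 labelled Synpo-/- no member was called after the lesion (0 of 77 by edgeR and by DESeq2, 13 at an unadjusted p under 0.05), where 0.077% of all genes were called. The median was 0.09. Mrpl37 had a range of 26.4 to 46.5 CPM (median 35.5) in the 6 control libraries and 18.8 to 42.1 CPM (median 38.2) in the 6 ECL libraries, and the groups overlap.

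In DG labelled Synpo-/-, 4 of 77 members rose and 0 fell, where 5.17% of all genes rose and 3.36% fell, and the median was 0.11. Groups did not overlap in 4 other members, all higher (5.43% of all genes): Mrpl22, Mrpl51, Mrps16 and Mrps23. Both counts were close to the shares of all genes. Mrps6, called in Synpo+/+ DG too, was among the 4 that rose: the 7 control libraries ran from 23.8 to 39.2 CPM (median 31.1) and the ECL libraries stood at 52.5, 35.8, 51.3 and 48.7 CPM. ECL replicate 2 fell within the control range, and the log2 fold change was 0.55 ± 0.12 (adjusted p = 0.00887). The others were Mrps24 (1.29 ± 0.30, adjusted p = 0.0142), Mrps26 (0.76 ± 0.20, adjusted p = 0.0262) and Mrps34 (1.84 ± 0.52, adjusted p = 0.0354), all small-subunit proteins. Their rise came from part of the group. Mrps24 stood at 13.8, 8.20, 31.6 and 40.1 CPM and Mrps34 at 4.71, 1.09, 18.5 and 17.3 CPM in the 4 ECL libraries, so replicates 3 and 4 were high. Replicate 2 lay within the control range for Mrps24 and below the lowest control of 1.35 CPM for Mrps34. All 4 genes called here overlap exons of other genes, but to unlike extents. The overlap took 1605 of 2064 exon bases in Mrps34, 305 of 1533 in Mrps6 and 226 of 1466 in Mrps24. In Mrps26 it took only 8 of 4358. Without ECL replicate 3 or 4 there was 1 call, without control replicate 3 there were 2, and without ECL replicate 2 there were 7. In this comparison 10 of 12 microglia markers (sums of 747 to 1390 CPM in control and 1511 to 2155 CPM after the lesion) and 7 of 9 astrocyte markers rose, none at 0, and their part was not tested.

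A rise in Synpo+/+ and not in Synpo-/- libraries is not in itself a difference between them. Tested as an interaction, 0 members differed by edgeR or DESeq2 in CA3 (9 at an unadjusted p under 0.05; 0.0% of all genes called) and 0 in DG (15 at an unadjusted p under 0.05; 0.00381% of all genes). The Synpo+/+ effect was larger in 57 of 77 members in CA3 (median difference 0.25) and in 71 of 77 in DG (median 0.30). Over genes with a mean normalised count over 300 the median difference was 0.22 in each region. The smallest p in DG was that of Mrpl11, a stalk base protein, with a difference of 0.52 (adjusted p = 0.478). Without DG ECL replicate 5 the DG median was 0.24 and 0 members were called.

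Lesioned and control Synpo+/+ cultures could also be compared in the input lysates, which hold the whole culture. Here 5 of 77 members were lower after the lesion and 0 higher, where 3.16% of all genes were lower and 2.45% higher, and the median was -0.08. These input libraries are the same that served in the coIP comparisons above. Mrpl12 stood at 103, 93.5, 89.8, 82.1 and 82.8 CPM in control and at 60.4, 54.4, 58.5, 78 and 78.8 CPM after the lesion. The groups do not overlap, as held for 3 members and for 2.85% of all genes in that direction, and the log2 fold change was -0.46 ± 0.12 (adjusted p = 0.0333). Mrpl38, a large-subunit protein particular to mitochondria, went from 64.9, 64.6, 52.2, 52.3 and 47.9 to 23.6, 19.1, 22.7, 42.5 and 44.3 CPM (-0.89 ± 0.21, adjusted p = 0.0267). Replicates 1 to 3 were far below the controls and replicates 4 and 5 just below them.

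Mrps15 (-0.75 ± 0.18, adjusted p = 0.0279), Mrpl57 (-0.74 ± 0.18, adjusted p = 0.0263) and Mrps34 (-2.45 ± 0.48, adjusted p = 0.0114) were the others. Mrpl12, Mrps15 and Mrps34 thus fell in input and rose in CA3, in separate libraries. Levels of Mrps34 in input were very low, 0.456 to 2.11 CPM in control and 0.052 to 0.451 CPM after the lesion. Most of its exon bases overlap other genes. Without ECL input replicate 1, 2 or 3 or control input replicate 2, only 1 member was called, without control input replicate 3 or 4 there were 2 and 3, and without ECL input replicate 5 there were 9. Of 12 microglia markers 5 rose in input (sums of 909 to 1541 CPM and 1390 to 2232 CPM). Other lists were lower, like the members called: the sum of 8 CA3 pyramidal cell markers went from 1191 to 1300 CPM in control to 800 to 1088 CPM after the lesion, without overlap and with 0 of 7 tested called, and that of 6 interneuron markers from a median of 1128 to 855 CPM, with 1 called lower. No marker of these lists was at 0, and their part was not tested. In coIP libraries no member was called after the lesion by edgeR (7 at an unadjusted p under 0.05, 1 by DESeq2; 0.314% of all genes called), with a median of -0.13.

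The members that passed the test in most lesion comparisons were Mrps34 with 3, and Mrps6, Mrps15, Mrpl12, Mrps26 and Mrpl4 with 2 each. Mrps34 rose in Synpo+/+ CA3 and in Synpo-/- DG and fell in input, where its level was very low. For Mrps6, Mrps26 and Mrpl4 each call was a rise in the regional libraries. For Mrps15 and Mrpl12 1 call was a rise in CA3 and the other a fall in input.

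Between regions, values tended to be lower in DG than in CA3. In Synpo+/+ control cultures 1 of 77 members passed the test, as lower (2.75% of all genes were lower and 2.63% higher), with a median log2 fold change of -0.24 against 0.02 over all genes and 74 values below 0. That member was Mrps33 (chr6:39801804-39810988), a small-subunit protein particular to mitochondria. It stood at 300 and 296 CPM in CA3 and at 166, 204, 174 and 173 CPM in DG, a log2 fold change of -0.72 ± 0.13 (adjusted p = 0.00513). The groups are far apart. In all, 26 members did not overlap in this direction, beside 13.7% of all genes.

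In the lesioned Synpo+/+ libraries 0 members differed by edgeR (19 at an unadjusted p under 0.05, 2 by DESeq2; 2.05% of all genes called), and the median was -0.19. Here the library with the low Prox1 mattered. Mrps33 stood at 256, 286 and 297 CPM in CA3 and between 166 and 313 CPM in DG (median 191), and the value of 313 CPM was that of replicate 5. Without it 33 members were lower in DG (12.3% of all genes) and the median was -0.28.

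Cell type markers moved with the regions too. In Synpo+/+ control cultures the sum of 6 general neuron markers was 3820 to 4531 CPM in DG and 6121 to 6179 CPM in CA3 (2 markers lower in DG), and that of 10 oligodendrocyte markers 697 to 1220 CPM and 1546 to 2243 CPM (7 lower). In control libraries labelled Synpo-/- the sums were also apart, with 3695 to 5108 CPM in DG and 5949 to 7340 CPM in CA3 for neurons (2 lower) and 622 to 1780 CPM and 1858 to 2962 CPM for oligodendrocytes (10 lower). After the lesion the neuron sums were apart in Synpo-/- libraries (3082 to 4064 CPM and 4368 to 6862 CPM). They overlapped in Synpo+/+ libraries, where DG, with the low-Prox1 library included, reached 6759 CPM. Not all lists were lower in DG. In Synpo+/+ control cultures interneuron marker sums were 877 to 1452 CPM in DG and 658 to 715 CPM in CA3. Sums of CA1 and subiculum markers were 104 to 213 CPM and 75.2 to 84.3 CPM. Granule cell marker sums were 387 to 527 CPM and 80.3 to 87.8 CPM. Those of CA3 pyramidal cell markers were lower in DG (710 to 761 CPM and 1284 to 1407 CPM). No marker of these lists was at 0, and their part in the members' values was not tested.

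In control libraries labelled Synpo-/-, 18 of 77 members were lower and 2 higher in DG (12.5% and 13.1% of all genes), with a median of -0.14 against 0.05. Mrpl10 fell by 0.55 on the log2 scale (adjusted p = 0.00117), from 25.6 to 39.2 CPM in CA3 to 16.4 to 25.4 CPM in DG, and its groups do not overlap, as in 4 members (6.98% of all genes). Mrpl37 (-0.61 ± 0.14, adjusted p = 0.00366) and Mrps22 (-0.59 ± 0.20, adjusted p = 0.0366) had the largest falls, and Mrps33 (-0.28) was also called. The Mrps22 call was lost with DESeq2 (-0.64) and without CA3 control replicate 1, 2 or 5 or DG control replicate 4, 6 or 7 (from -0.58 to -0.48). The 2 higher members were Mrps36 (0.24) and Mrpl47 (0.23), whose calls were lost with DESeq2, RLE size factors, no filter or all groups in 1 fit. Without CA3 control replicate 2 or 5 there were 8 calls, without CA3 control replicate 1 there were 10, and without DG control replicate 4 there were 12. After the lesion 2 of 77 were lower and 0 higher (6.24% and 7.37% of all genes), Mrps33 (-0.60 ± 0.14, adjusted p = 0.00806) and Mrpl20 (-0.34, adjusted p = 0.0493), and the median was -0.16. Without Synpo-/- CA3 ECL replicate 6 there were 23 calls and without replicate 2 there were 5. Leaving out CA3 ECL replicate 1, 3 or 4 or any 1 of the DG ECL replicates 1 to 4 left 1 call.

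No member passed the test between genotypes in any region or state. In CA3 control, CA3 ECL, DG control and DG ECL, 0 members were called by edgeR, with 11, 6, 20 and 1 at an unadjusted p under 0.05, and DESeq2 called 4, 0, 0 and 0. Over all genes 0.00413%, 0.00891%, 0.0166% and 0.0166% were called. Without DG ECL replicate 5 the count in DG ECL was also 0. Median log2 fold changes of Synpo-/- over Synpo+/+ were 0.08, -0.08, 0.18 and -0.06. The DG control value goes with family shares of 0.624% ± 0.028 (SD, n = 7) in Synpo-/- and 0.575% ± 0.0353 (n = 4) in Synpo+/+ libraries.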

How the data were processed

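RNA of 63 libraries was measured, 24 of the coIP experiment and 39 of the regional one. The authors trimmed reads with cutadapt 3.5, aligned them with STAR 2.7.8a to the mouse genome (GRCm38, GENCODE M25 annotation) and counted them per gene with featureCounts 2.0.1 without strand. The deposited values are these raw counts. No column was left unused (0).

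Groups followed the labels. Each comparison was fitted on its own libraries with edgeR 4.0.16 (R 4.3.3, limma 3.58.1) by the quasi-likelihood test after TMM scaling and a filter on low counts, with Benjamini-Hochberg adjustment over all genes tested and a threshold of 0.05. Interactions used the 4 groups concerned. Errors of fold changes are SE. CPM are TMM-scaled within each experiment, so levels are not compared between experiments. Depth limits precision for low genes such as Mrps34. Fits were tested on simulated data.

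Alternatives were DESeq2 1.42.0, RLE size factors, no filter, removal of length or length and GC trends (lowess, span 0.3, fitted on genes with a mean count over 50), a replicate block, all groups in 1 fit, genes with a mean normalised count over 300, and each library left out. By the study's methods each input was an aliquot of the lysate used for coIP, but the labels give only a replicate number. Deviations of Synpo+/+ coIP and input libraries with the same number correlated in every pair (r from 0.105 to 0.442). The numbers were therefore taken to pair them, which the labels do not state. The reported tests did not use this pairing, and the replicate block did. In other comparisons libraries share only a number, and r ran from -0.254 (lesioned and control coIP, number 2) to 0.540 (Synpo-/- control DG and CA3, number 4).

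Members, gene lists and tests were chosen with earlier results of these data known. Members are named where they had the largest changes among those called in a comparison, went against the family in coIP, stood highest or lowest per kilobase, had one of the roles described, or were called in the most lesion comparisons. From each related list a few genes with the smallest p are named. Mrps11, Mrpl11, the members with most exon overlap and the full lists of called or non-overlapping members lie outside this rule and were added after their values were seen.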

Additional observations from a re-analysis of the deposited data

Results flagged for a closer look

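In 100 groups of 4 to 10 libraries, over 10 quantities, 6 held a library far from the others by Dixon's test, which chance gives in about 1 of 20 groups. Mrps34 stood at 5.31 CPM in Synpo+/+ control coIP replicate 2, against 0.307 to 0.683 CPM in the others. Mrps33 stood at 313 CPM in Synpo+/+ DG ECL replicate 5, the library with low Prox1, against 166 to 212 CPM. Mrpl36 stood at 89.8 CPM in Synpo-/- CA3 ECL replicate 6, against 141 to 156 CPM. Mrpl37 stood at 169 CPM in Synpo+/+ control input replicate 1, against 138 to 143 CPM. Mrpl3 stood at 39.4 CPM in Synpo-/- DG control replicate 4, against 33.1 to 35.8 CPM, and at 22.1 CPM in Synpo+/+ ECL input replicate 5, against 18.5 to 19.4 CPM.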

How the results depend on the processing

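The number of members called in the 3 coIP comparisons stayed within 1.5 times the reported count under every alternative, with 71, 71 and 64 under the replicate block (61 by the other numbering of the Synpo-/- libraries). Counts that moved by more follow, and the cause was not tested. Lesion, input: replicate block 3, all groups in 1 fit 2. Lesion, coIP: DESeq2 1, no filter 1. Lesion, Synpo+/+ CA3: DESeq2 17, RLE 5, no filter 24, length and GC 3, replicate block 14, all groups 0. Lesion, Synpo+/+ DG: length and GC 8, all groups 37. Lesion, Synpo-/-: CA3 without filter 1, DG with replicate block 1. Genotype difference of the lesion effect in CA3: replicate block 1. DG against CA3, Synpo+/+ control: DESeq2 6, RLE 2, no filter 3, length 2, length and GC 3, replicate block 0. DG against CA3, Synpo+/+ ECL: DESeq2 2, no filter 2, replicate block 35, all groups 1. DG against CA3, Synpo-/-: control without filter 12, ECL with DESeq2 4, no filter 1, length and GC 4, replicate block 18. Synpo-/- against Synpo+/+: CA3 control DESeq2 4, no filter 3, replicate block 10, and CA3 ECL replicate block 6. Leaving out each library gave 69 to 74, 69 to 71 and 49 to 63 calls in coIP (Synpo+/+ control, ECL, Synpo-/-), 1 to 9 in lesioned input, 0 to 1 in lesioned coIP, 0 to 6 in CA3 and 2 to 20 in DG for the Synpo+/+ lesion, 0 to 0 and 1 to 7 for Synpo-/-, and, for DG against CA3, 1 to 3, 0 to 33, 8 to 24 and 1 to 23 (Synpo+/+ control, ECL, Synpo-/- control, ECL). Values that changed sign were never called: Mrps34 in Synpo+/+ control coIP with the replicate block (-0.37), without input replicate 5 (-0.02) or coIP replicate 2 (-1.44), and Mrpl3 in ECL coIP with the length trend removed (-0.16) or without coIP replicate 5 (-0.0055). Over all libraries left out these values ran from -1.44 to 0.49 and from -0.0055 to 0.14. DESeq2 moved the median of all genes to -0.23 in Synpo+/+ CA3 and -0.30 in DG for the lesion, so changes there are read relative to it.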

Other observations

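A few members varied far more than the rest between libraries of the same group. Within the regional groups the SD of log2(CPM + 0.5) was 0.99 for Mrps34, 0.56 for Mrps24, 0.55 for Mrps15, 0.52 for Mrpl54, 0.49 for Mrps22, 0.46 for Mrpl57 and 0.44 for Mrpl38, against a median of 0.21 over 77 members. These 7 were chosen after their values were seen. They varied together, with correlations over the 39 libraries from 0.40 to 0.98, the highest between Mrpl54 and Mrpl57. Their median GC content was 56.3%, but Mrpl57 (43.0%) and Mrps22 (47.1%) lay below the median of 49.9% over all members. Libraries share depth and composition, so the correlations are a description. Mrps34, Mrps15, Mrpl57 and Mrpl38 are also 4 of the 5 members called lower in lesioned input.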
